A study of Sus scrofa with 2 samples.

Results

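Deubiquitinating enzymes take ubiquitin, a small protein tag, off other proteins. Their genes were followed here in a back muscle, longissimus dorsi, of pigs kept in thermoneutral or hot rooms. They were chosen by name, as entries of the deposited expression table whose Ensembl pig gene ID has a symbol of the USP, OTUD, OTUB or UCHL series, with USP18 left out. In all, 50 of 27987 entries were found, 38 of the USP, 9 of the OTU and 3 of the UCH family. OTU and UCH stand here for members with these symbols, not for all genes of these families. Symbols were available for 11374 entries, so members without one (among them USP1, USP14, USP22, USP30 and OTUD3) are not analysed here.

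The animals were castrated male pigs of the DLY cross (Duroc sires on Yorkshire-Landrace dams), 16 in number and from 8 litters, weighing 79.0 ± 1.5 kg as labelled. The control arm (CON) lived at a constant 22 °C and the heat arm (H30) at a constant 30 °C, both for 21 days with 8 pigs each. There was 1 messenger RNA library per arm, and the labels do not say whether it holds the RNA of 1 pig or of several pooled pigs. The comparison asked how muscle gene expression differed after constant heat; with 1 library per arm there is no significance test across pigs, and an effect of temperature cannot be told apart from differences between animals, their handling or the library itself.

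Ubiquitin is attached to proteins by a cascade of activating, conjugating and ligating enzymes, and chains of it send proteins to the proteasome, to lysosomes or into signalling complexes. Deubiquitinating enzymes trim or remove these chains, recycle ubiquitin and so set how long many proteins last. The USP, OTU and UCH families are cysteine proteases that differ in fold: USP enzymes are the most numerous and varied, many OTU enzymes prefer particular chain linkages, and UCH enzymes favour small adducts or work at the proteasome. In muscle the ubiquitin system is best known for the breakdown of contractile proteins during wasting. Not every gene with such a symbol encodes an active protease: USP39 is a splicing factor without deubiquitinating activity, USP50 is regarded as inactive, USP53 and USP54 were long listed as inactive, and USP6NL is a regulator of small GTPases.

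Levels are given in RPKM, the reads of a gene scaled to its length and to the library total, which allows levels of different genes to be compared per length. The values themselves gave the depth, an estimated 23608242 reads for the control and 22863584 for the heat library. In these, 1 read on a gene of 1000 bp amounted to 0.0424 and 0.0437 RPKM. As a check of the tissue, 8 of 12 muscle fibre markers were matched and together held 163190 RPKM in the control and 156361 RPKM in the heat library. Markers of other cells were far lower in sum, at 975 and 881 RPKM for fibroblasts (8 of 9 matched), 138 and 155 for endothelium (5 of 8), 103 and 113 for smooth muscle and pericytes (4 of 7), 89.5 and 113 for red blood cells (3 of 5), 52.3 and 50.8 for adipocytes (4 of 8), 30.03 and 32.1 for macrophages (6 of 9), 27.4 and 24.9 for lymphocytes (7 of 9) and 21.6 and 17.8 for Schwann cells and nerve (3 of 5), with no matched marker at 0 in both libraries. Single markers moved more than the sums, and not in 1 direction. Ratios of heat over control were 3.02 for the macrophage gene LYZ (95% counting interval 1.89 to 4.96) and 0.744 for MRC1 (0.556 to 0.991). Among lymphocyte genes they were 2.41 for CD2 (1.58 to 3.74) and 0.813 for CCL5 (0.682 to 0.968). Among adipocyte genes they were 0.460 for CIDEC (0.361 to 0.583), 0.661 for PLIN1 (0.450 to 0.962) and 1.18 for PLIN4 (1.12 to 1.23). With a mean of at least 1 RPKM, 2 macrophage markers were higher and 4 lower, and 2 and 2 for lymphocytes and for adipocytes. Some other sets leaned more to 1 side. Intervals lay below 1 for 5 of 8 fibroblast, 6 of 8 muscle fibre and 2 of 2 Schwann cell and nerve markers, and above 1 for 0, 2 and 0. For endothelium, 2 of 5 lay above 1 and 0 below. Over all entries, 20.6% lay above 1 and 10.6% below. The part of these cells in the values below was not tested. In bulk muscle, fewer cells of a type and less RNA per cell cannot be told apart.

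Deubiquitinating enzyme genes spanned a wide range of levels in this muscle. Of the 50, 12 had a mean of at least 20 RPKM, 12 of 5 to 20, 15 of 1 to 5, and 11 lay under 1 RPKM, the filter used for all ratios. Summed over the 50, the level was 610 RPKM in the control and 637 RPKM in the heat library, 0.0852% and 0.0911% of all RPKM. The ratio of these sums was 1.04, the same as the median ratio of all entries, 1.04. All RPKM summed to 715684 in the control and 698995 in the heat library. The 6 highest members, USP28, OTUD1, UCHL3, USP2, USP13 and USP9X, held 44.4% of the members' sum in the control and 45.0% in the heat library.

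**Figure D1:**
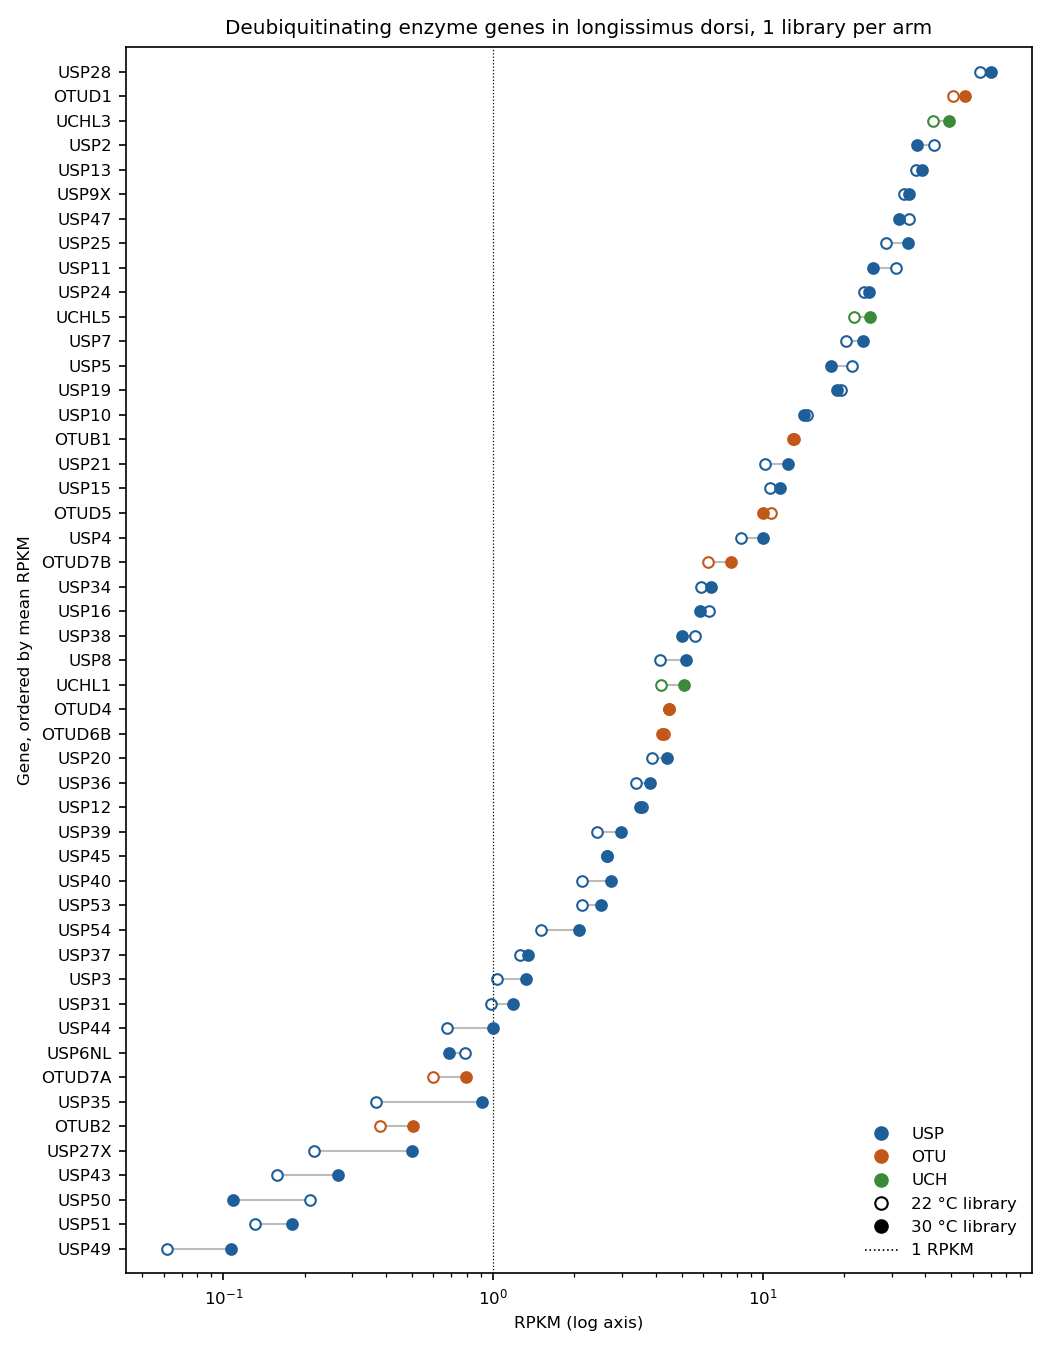
RPKM on a log axis of 49 deubiquitinating enzyme genes (1 library per arm), ordered by mean RPKM and coloured by family, with the 22 °C library as an open and the 30 °C library as a filled circle. OTUD6A, at 0 in the control library, is not drawn. The libraries lie close together for the higher genes, and the widest gaps are among genes under 1 RPKM.

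USP28 (ENSSSCG00000015052), a nuclear enzyme known for stabilising MYC, was the highest member, at 63.8 RPKM in the control and 70.01 RPKM in the heat library. OTUD1 (ENSSSCG00000011076), an OTU enzyme that trims chains linked through lysine 63, came next at 50.9 and 56.3 RPKM. UCHL3 (ENSSSCG00000009466), which frees ubiquitin from small adducts, stood at 42.7 and 48.9 RPKM. All 3 were a little higher in the heat library and kept their order among themselves in both libraries, but there is no replicate to set the spread of the levels. By mean level USP2 (ENSSSCG00000015120), an enzyme with a daily rhythm in several tissues, followed at 43.3 and 37.2 RPKM. In the control library USP2 lay above UCHL3, and it was the first by mean level to lie lower in the heat library.

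None of the members with a mean of at least 1 RPKM was 1.5-fold apart between the libraries. On the scale log2((heat RPKM + 1)/(control RPKM + 1)), 39 of the 50 members passed the filter, and the counts at least 1.5-fold and at least 2-fold higher or lower were all 0. Of all 13191 entries that passed, 3.44% were higher and 2.37% lower by 1.5-fold or more, and 0.629% and 0.584% by 2-fold or more. Members were chosen by symbol, and such differences were rarer among the 6990 entries with a symbol that passed. Of these, 87 were higher and 41 lower by 1.5-fold or more, and 10 and 10 by 2-fold or more. Few such members, if any, would thus be found at either share. Log2 ratios of the members ran from -0.28 for USP11 to 0.31 for USP54, while 95% of all entries lay between -0.57 and 0.66. The 95% range of entries with a symbol alone was not computed. The members' median log2 ratio was 0.12 and that of all entries 0.05, and 25 of the 39 members (64.1%) lay above 0 beside 58.8% of all entries. That split of 25 higher and 14 lower became 31 and 8 when both libraries were rescaled without the 10 highest entries, where 65.1% of all entries lay above 0, and 23 and 16 by trimmed mean rescaling, where 49.8% did.

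**Figure D2:**
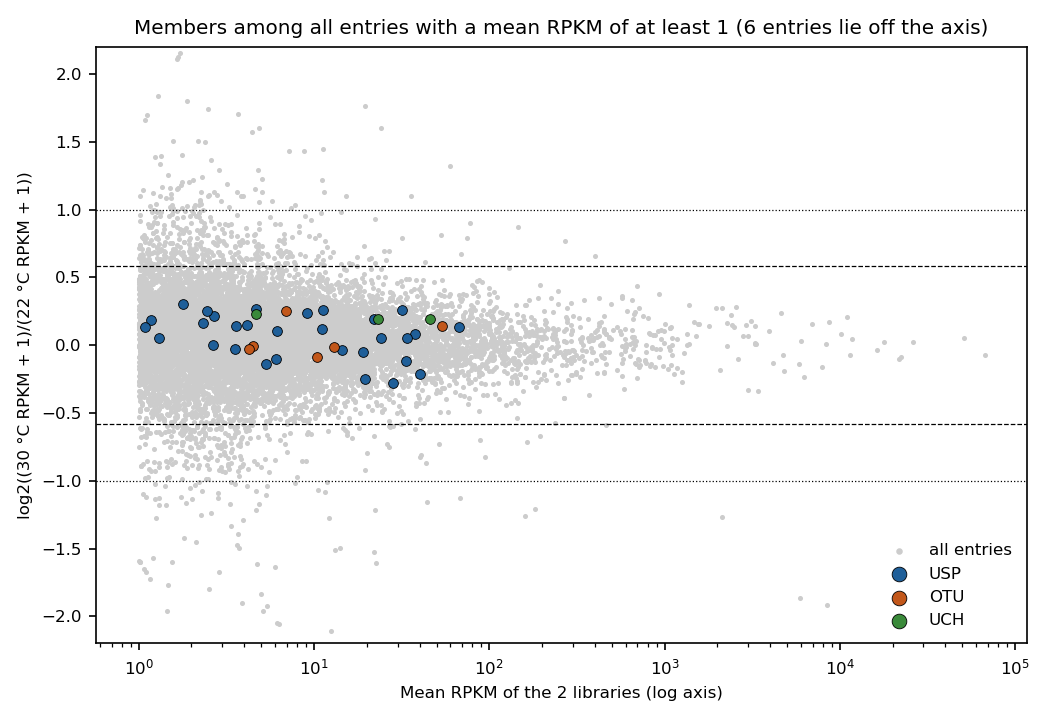
Log2 ratio of the libraries against mean RPKM (log axis) for all 13191 entries with a mean of at least 1 RPKM (grey) and for the 39 deubiquitinating enzyme genes among them, coloured by family; 6 entries lie off the axis. Dashed lines mark 1.5-fold and dotted lines 2-fold, and every member lies inside the dashed lines.

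Counting error alone separates smaller differences. From the smallest whole reads that give both RPKM values of a gene, an exact (Clopper-Pearson) 95% interval of the RPKM ratio was computed. It covers counting error in these 2 libraries only and not the spread between pigs. The true reads can be a multiple of the smallest ones, which would narrow an interval, so an interval that holds 1 may be too wide. The interval lay above 1 for 14 of the 39 members (35.9%) beside 20.6% of all entries, and below 1 for 4 members (10.3%) beside 10.6%. Members rested on more reads than the background, with a median of 970 reads over both libraries against 357, and more reads narrow the interval. Divided by the median ratio of all entries, 1.04, the intervals of 9 members lay above and of 6 below 1. The share of all entries after this division was not computed, so these counts have no background beside them.

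**Figure D3:**
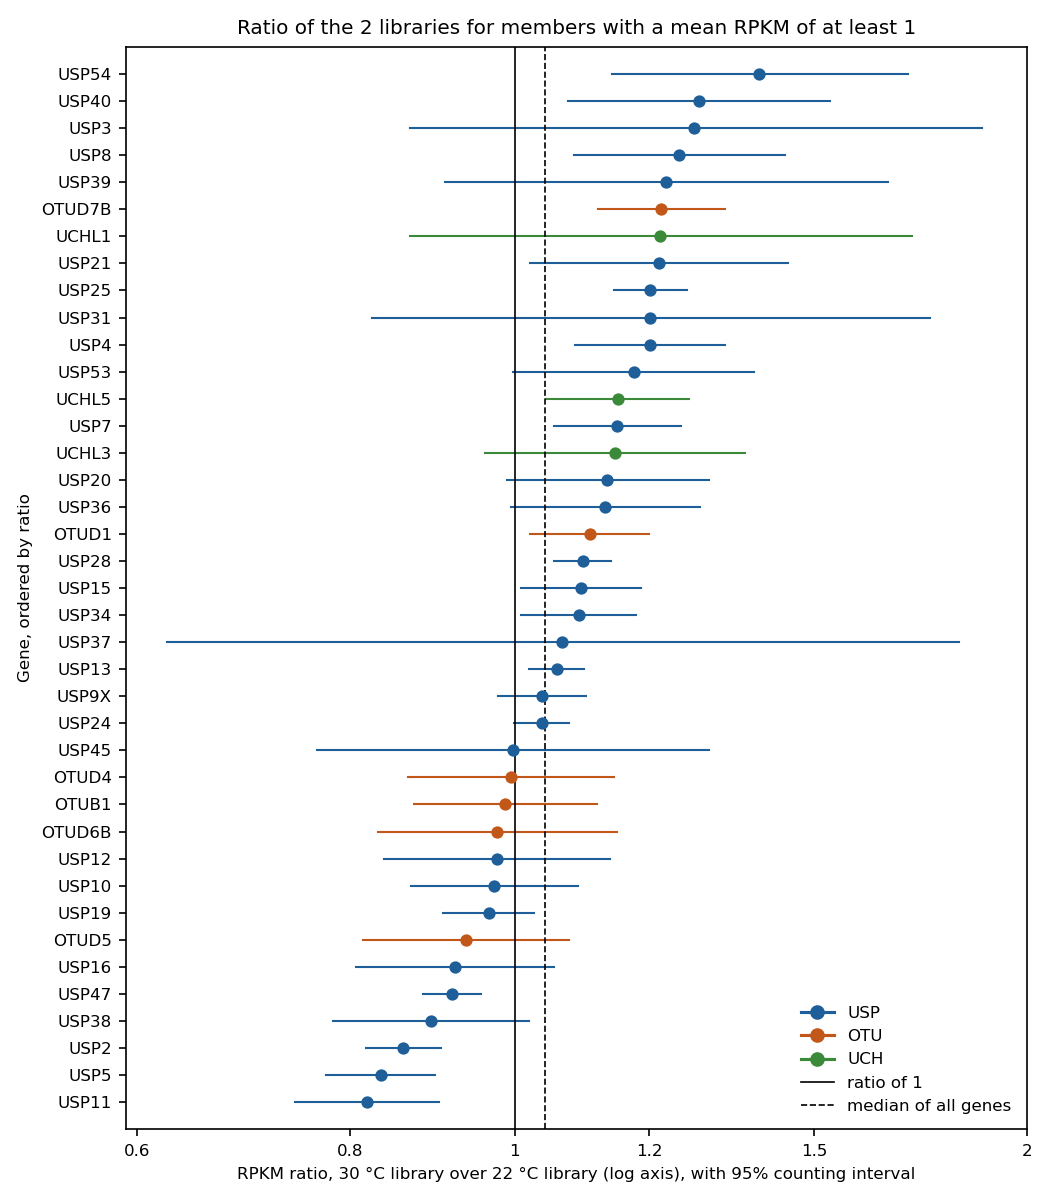
RPKM ratio of the 30 °C over the 22 °C library (log axis) for the 39 members with a mean of at least 1 RPKM, ordered by ratio, with 95% counting intervals as bars and families in colour. The solid line is a ratio of 1 and the dashed line the median of all entries, 1.04; USP11, USP5, USP2 and USP47 lie below 1 with their whole interval.

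Enzymes that handle free ubiquitin and ubiquitin at the proteasome were split. UCHL5 (ENSSSCG00000010802), which sits on the proteasome and trims chains of bound proteins, stood at 21.7 RPKM in the control and 24.9 RPKM in the heat library, and the ratio was 1.15 (1.04 to 1.27). USP5 (ENSSSCG00000000684), which takes apart unanchored ubiquitin chains, went the other way, from 21.4 to 17.8 RPKM, a ratio of 0.834 (0.775 to 0.898). Its relative USP13 (ENSSSCG00000011765), whose human form has weak activity on such chains, stood at 36.8 and 39.0 RPKM, a ratio of 1.06 (1.02 to 1.10). UCHL3 had a ratio of 1.15, and its interval of 0.961 to 1.37 holds 1 at the smallest reads that fit, 246 and 273. More reads at the same ratio would narrow it, so the side of UCHL3 is not settled. UCHL1 (ENSSSCG00000022945), an enzyme abundant in neurons, was at 4.19 and 5.10 RPKM, from 67 and 79 reads or more, with a ratio of 1.22 (0.868 to 1.71). All 3 UCH members were thus higher in the heat library, with log2 ratios of 0.19, 0.19 and 0.23, beside 58.8% of all entries above 0. BAP1, a UCH enzyme that is not a member by symbol, had a ratio of 0.967 (0.892 to 1.05). At the smallest reads, 1 of the 3 members' intervals, that of UCHL5, lay above 1.

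Enzymes linked to DNA repair and to growth factor signalling held the lowest ratio. USP11 (ENSSSCG00000012273), which acts in repair by homologous recombination and on the TGF-beta receptor, stood at 31.2 RPKM in the control and 25.5 RPKM in the heat library, with a ratio of 0.819 (0.743 to 0.903). Its relatives lay on the other side: USP4 (ENSSSCG00000011382), another enzyme of the TGF-beta receptor, stood at 8.33 and 10.00 RPKM, a ratio of 1.20 (1.09 to 1.33), and USP15 (ENSSSCG00000000457), which acts on receptor-activated SMADs, at 10.6 and 11.6 RPKM, a ratio of 1.09 (1.01 to 1.19). USP9X (ENSSSCG00000012251), which removes ubiquitin from SMAD4, was at 33.4 and 34.7 RPKM, a ratio of 1.04 (0.978 to 1.10). USP47 (ENSSSCG00000013402), which acts on DNA polymerase beta in base excision repair, stood at 34.8 and 31.99 RPKM, a ratio of 0.918 (0.883 to 0.955). Of the 4 measured repair members, 3 (USP11, USP47 and USP45) had a log2 ratio below 0 and USP28 was above it, at a ratio of 1.10 (1.06 to 1.14). USP45 (ENSSSCG00000004351), which acts on the repair nuclease subunit ERCC1, was at 2.64 RPKM in both libraries.

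Members linked to endosomes and muscle wasting also differed among themselves. USP8 (ENSSSCG00000004639), which works with the ESCRT machinery that sorts receptors on endosomes, had the second highest log2 ratio, 0.26, at 4.14 RPKM in the control and 5.18 RPKM in the heat library (ratio 1.25, 1.08 to 1.44). USP2 had a ratio of 0.860 (0.818 to 0.905). USP10 (ENSSSCG00000002670), a partner of the stress granule protein G3BP1, was at 14.6 and 14.2 RPKM, USP12 (ENSSSCG00000009302), which needs the cofactor WDR48, at 3.57 and 3.49, and USP20 (ENSSSCG00000024341), which acts on the beta2-adrenergic receptor, at 3.89 and 4.41, each with an interval that holds 1. USP19 (ENSSSCG00000011375), whose loss spares muscle in mouse models of wasting, was at 19.4 RPKM in the control and 18.8 RPKM in the heat library, and the ratio was 0.966 (0.908 to 1.03). USP25 (ENSSSCG00000024623), which has a muscle isoform in human and opposes degradation of proteins from the endoplasmic reticulum, stood at 28.7 and 34.5 RPKM, a ratio of 1.20 (1.14 to 1.26). Among members with a mean of at least 20 RPKM, USP25 had the highest log2 ratio, 0.26. Isoforms cannot be told apart in a table with 1 value per gene.

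Chromatin enzymes were mostly low in level. USP7 (ENSSSCG00000007907), which stabilises MDM2 and p53, was the highest of them, at 20.4 RPKM in the control and 23.5 RPKM in the heat library, and the ratio was 1.15 (1.05 to 1.25). USP21 (ENSSSCG00000006362), which acts on histone H2A, stood at 10.2 and 12.4 RPKM, a ratio of 1.22 (1.02 to 1.45). USP16 (ENSSSCG00000027594), another H2A enzyme, was at 6.33 and 5.84 RPKM, the nucleolar USP36 (ENSSSCG00000017165) at 3.38 and 3.82, and USP3 (ENSSSCG00000028737), also of H2A, at 1.04 and 1.32, each with an interval that holds 1. Of the 9 chromatin members found, 5 passed the filter, with a median log2 ratio of 0.19.

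OTU enzymes and members linked to innate immunity showed no common direction. OTUD7B (ENSSSCG00000006663), an enzyme of lysine 11 chains that restrains noncanonical NF-kappaB signalling, had the highest ratio of the 6 OTU genes that passed the filter, 1.22 (1.12 to 1.33), from 6.25 RPKM in the control to 7.63 RPKM in the heat library. OTUD1 had a ratio of 1.11 (1.02 to 1.20). The other 4 measured OTU genes had intervals that hold 1. OTUB1 (ENSSSCG00000013045), which trims lysine 48 chains and also blocks conjugating enzymes, was at 13.1 and 12.9 RPKM and OTUD5 (ENSSSCG00000021934), a TRAF3 enzyme, at 10.7 and 10.00. OTUD4 (ENSSSCG00000009042), an adaptor in the repair of alkylated DNA, was at 4.50 and 4.48 RPKM and OTUD6B (ENSSSCG00000006120) at 4.31 and 4.21. The family median log2 ratio was -0.01, and it turned to 0.03 when rescaled without the 10 highest entries and to 0.06 with another filter on level. Of the USP members in this group, USP38 (ENSSSCG00000009049), a regulator of TBK1, was at 5.60 and 4.999 RPKM and USP31 (ENSSSCG00000030424), an inhibitor of NF-kappaB, at 0.983 and 1.18, both with intervals that hold 1.

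Among genes listed as inactive, the 3 that passed the filter were higher in the heat library. The 2 under 1 RPKM were lower in value, but their intervals hold 1, at 0.0835 to 2.42 for USP50 and 0.551 to 1.37 for USP6NL. USP54 (ENSSSCG00000010302) had the highest log2 ratio of all 39 members, 0.31, at 1.50 RPKM in the control and 2.09 RPKM in the heat library (ratio 1.39, 1.14 to 1.70). USP53 (ENSSSCG00000023174), a protein of tight junctions, was at 2.13 and 2.51 RPKM (1.17, 0.998 to 1.38), and USP39 (ENSSSCG00000030435) at 2.42 and 2.97 (1.23, 0.910 to 1.66). USP54, USP53 and USP39 are low in level, and the interval of USP54 alone lies above 1. The remaining USP genes were USP40 (ENSSSCG00000016306), at 2.14 and 2.74 RPKM (ratio 1.28, 1.07 to 1.53), USP34 (ENSSSCG00000008382), an enzyme of the Wnt scaffold axin, at 5.91 and 6.44 (1.09, 1.01 to 1.18), USP24 (ENSSSCG00000029633) at 23.8 and 24.7, and USP37 (ENSSSCG00000016194), an enzyme of cyclin A, at 1.26 and 1.35. The last 2 had intervals that hold 1.

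Related genes were set side by side, in 11 pairs chosen after their values were seen, so the counts are a description with no background share. A rescaling of a library multiplies the RPKM ratios of both genes by the same factor. Counting intervals of the ratios did not overlap in 4 pairs, and in 3 of these the genes lay on opposite sides of 0 as deposited. USP11 was 0.52 lower than USP4 in log2 ratio, USP5 was 0.33 lower than USP13, and USP7 was 0.31 higher than its relative USP47. The fourth pair, USP25 and USP28, lay on the same side, with USP25 higher by 0.13 in log2 ratio and USP28 2.12 times higher in mean RPKM. The other 7 pairs had overlapping intervals, and some were far apart in level: mean RPKM of UCHL3 was 9.87 times that of UCHL1, of OTUB1 29.4 times that of OTUB2, and of OTUD7B 9.99 times that of OTUD7A.

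The 11 members under 1 RPKM were 8 USP and 3 OTU genes. USP44 (ENSSSCG00000021307), an H2B enzyme, was at 0.675 RPKM in the control and 0.996 RPKM in the heat library, just below the filter, from 107 and 153 reads or more (ratio 1.48, 1.15 to 1.91), while USP31 at a mean of 1.08 RPKM was just inside it. USP35 (ENSSSCG00000014892) was at 0.369 and 0.909 RPKM, from 13 and 31 reads or more, with a ratio of 2.46 (1.25 to 5.13). These were the 2 of the 11 with an interval above 1. The share of all entries under 1 RPKM with such an interval was not computed, so this count has no background beside it. USP6NL stood at 0.786 and 0.686 RPKM, OTUD7A at 0.596 and 0.794, OTUB2 at 0.381 and 0.503, USP27X at 0.216 and 0.502, USP43 at 0.158 and 0.266, USP50 at 0.210 and 0.108, USP51 at 0.131 and 0.180, and USP49 at 0.0620 and 0.107. OTUD6A had 0 reads in the control and at least 1 in the heat library, under the 3 reads that a count of 0 allows. At the smallest reads, the counting intervals of these 9 genes held 1, so no difference was detectable from them.

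Some members could share reads with other genes. USP9X has a near-identical relative on the Y chromosome in many mammals, and USP27X and USP51 are intronless relatives of each other, so their values are uncertain. In the RefSeq annotation of Sscrofa11.1, another build than the authors' Sscrofa10.2, 6 members overlap a protein-coding gene: USP8 and USP50 overlap each other, and USP4, USP34, USP37 and USP44 overlap C13H3orf62, AHSA2, VIL1 and METAP2. The labels do not describe the library kit as strand-specific, so reads from overlaps cannot be assigned.

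Other genes of the pathway were taken from lists drawn up by role, and FBXO32 was their 1 gene past 1.5-fold. Deubiquitinases with other symbols, and their inactive relatives, had a median log2 ratio of 0.13 over 20 measured genes of 28 listed. They include BAP1 of the UCH family and TNFAIP3, ZRANB1 and VCPIP1 of the OTU family. Of the 20, 16 (beside 58.8% of all entries) lay above 0, with 9 intervals above 1 (beside 20.6%) and none below 1 (beside 10.6%). Their read depth was not matched to that of all entries. STAMBPL1, an endosomal protease of lysine 63 chains, was at 1.21 and 2.08 RPKM (log2 ratio 0.48) and USPL1, a SUMO protease, at 2.13 and 3.36 (0.48), while BAP1, a histone H2A enzyme, was at 21.2 and 20.5 (-0.05) and JOSD2 at 17.2 and 15.1 (-0.18). Cofactors of deubiquitinases had a median of 0.02 over 9 of 13. GMPS, a partner of USP7, was at 5.84 and 8.02 RPKM (0.40) and STAM2, a partner of USP8, at 2.69 and 2.86 (0.06). ATXN7L3, which activates USP22, was at 6.02 and 5.40 RPKM (-0.13) and BABAM2, of BRCC3 complexes, at 7.54 and 6.25 (-0.24).

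Ubiquitin genes and activating enzymes had a median of -0.0046 over 5 of 9 listed. UBA7, which activates the ubiquitin-like ISG15, was at 5.05 and 6.91 RPKM (log2 ratio 0.39) and the polyubiquitin gene UBB at 839 and 884 (0.08). UBA1, the main activating enzyme, was at 80.2 and 79.3 RPKM (-0.02). Ubiquitin ligases of muscle had a median of 0.03 over 16 of 20, with 10 above 0, beside a median of 0.05 and 58.8% above 0 for all entries. FBXO32, the wasting ligase atrogin-1, had a log2 ratio of 0.63 and MDM2, a substrate of USP7 and USP2, of 0.23, at 21.8 and 25.8 RPKM. TRIM32 was at 4.71 and 4.08 RPKM (-0.17).

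**Figure D4:**
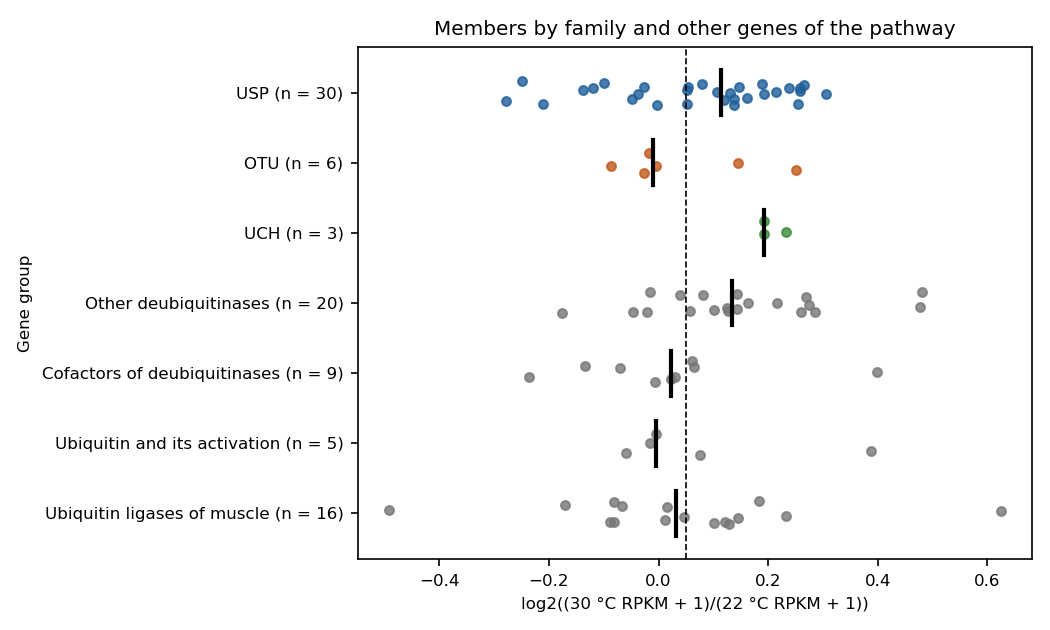
Log2 ratio of the libraries for the members by family (colour) and for 4 lists of other ubiquitin pathway genes (grey), 1 point per gene with a mean of at least 1 RPKM; the black bar is each group's median and the dashed line the median of all entries, 0.05. USP (0.11), UCH (0.19) and other deubiquitinases (0.13) have medians to the right of that line, OTU (-0.01) to the left.

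By role, the median log2 ratio was 0.14 for recycling of free ubiquitin (3 of 4 measured genes above 0), -0.06 for DNA repair (1 of 4), -0.03 for endosomes (2 of 5), 0.05 for SMAD and TGF-beta signalling (3 of 5), 0.14 for NF-kappaB and innate immunity (4 of 7), 0.10 for the endoplasmic reticulum and wasting (1 of 2) and 0.21 for inactive genes (3 of 3, without USP50 and USP6NL, which did not pass), and some genes are in more than 1 of these groups. Of the mitochondrial group USP15 alone passed the filter, and of the proteasome group UCHL5 alone. Over all entries 58.8% had a log2 ratio above 0, and groups this small cannot be set apart from that share. By level, the members' median log2 ratio was 0.15 over 15 genes of 1 to 5 RPKM, -0.03 over 12 genes of 5 to 20 RPKM and 0.11 over 12 genes of at least 20 RPKM. Over all entries the same medians were 0.07, 0.04 and 0.02. The members' log2 ratios thus followed no steady course with level. The middle class, which holds USP19, USP10, OTUB1 and OTUD5, had 5 of 12 above 0, beside 58.9% of all entries of that level.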

How the data were processed

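One messenger RNA library per arm was measured. Per the labels' protocols, 3 µg of total RNA was poly(A) selected, randomly primed and amplified in 10 cycles. The authors deposited 1 RPKM value per gene and library; Bowtie, TopHat 1.4.0, Cufflinks 1.3.0 and Sscrofa10.2 are named, with no role, per the submitters' processing notes. The counting tool and the source of gene lengths are not given in the sources used here.

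Library totals were recovered as the values at which gene lengths come out whole (within 0.01 bp for 85.9% of 5661 low entries, and 42.7% at double the total). Reads are the smallest whole numbers giving both values at a whole length, so they are minimums and the intervals may be too wide. The steps were tested on simulated data. PCR reads are not independent molecules, so intervals cover counting error only. Ratios used a pseudocount of 1, which understates differences of low genes, and a mean RPKM of at least 1. Named were all members, with values for the 12 highest and 12 lowest log2 ratios, the 6 highest levels, every OTU and UCH gene and the role lists, plus the 2 highest and 2 lowest of each pathway list, of which 2 genes are not reported here. Members and lists were chosen with earlier results of these data known; the 11 pairs were chosen after values were seen. No sequences are shown. Python 3.11.15, numpy 2.4.6, pandas 2.3.3 and scipy 1.17.1 were used.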

Additional observations from a re-analysis of the deposited data

How the results depend on the processing

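No paired analysis was possible because there is only 1 library per arm, and for the same reason no replicate could be left out. The counts of 0 members at least 1.5-fold or 2-fold apart stayed 0 with pseudocounts of 0.1 and 5, other filters, 3 rescalings, summed entries and, added after seeing the data, with no pseudocount. Without the filter the pseudocount of 1 was kept, and without the pseudocount the filter was kept. These settings therefore say little about genes under 1 RPKM. Among those, the RPKM ratio was 2.46 for USP35 (1.25 to 5.13) and 0.516 for USP50 (0.0835 to 2.42). With a mean RPKM of at least 5, 14 of 24 members lay above 0, by fewer genes, beside 57.3% of all entries. The UCH median (0.19) was 0.17 with a pseudocount of 5, 0.14 centred on the median of all genes, 0.13 by the trimmed mean and 0.24 without the 10 highest entries. Intervals above 1 numbered 9 after division by the median ratio and 10 at 99%, with no share of all entries computed for either setting. Rescaling shifts all log2 ratios one way, low genes less because of the pseudocount, and turned the signs of some genes near 0: USP24 and USP9X turned to -0.01 by the trimmed mean, and OTUB1, OTUD4, OTUD6B, USP10, USP12 and USP45 turned above 0 without the 10 highest entries. Depth limits genes under 1 RPKM most.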
